A study of Xenopus laevis with 4 samples.

Results

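This section describes 200 cDNA clones whose RNA was, with the likely direction of the ratios, lower in Xenopus laevis animal caps with blocked BMP signalling than in control caps, out of 29791 clones measured (0.671%). The members were chosen by the measured ratios themselves. A clone entered the list when its log2 ratio, after subtraction of the median of its plate, was at or below -1 on both arrays that carried it, which is at least 2-fold lower. Of the 200, 40 came from the 11807 clones of set 1 (0.339%) and 160 from the 17984 clones of set 2 (0.89%). Because the same values chose the clones, their ratios are given below as a description, and no test result is given as support for them.

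The material was ectoderm explanted as animal caps at stages 8 to 8.5 and harvested at stage 10.5, the early gastrula. The injected caps came from embryos given 4 ng of mRNA for a dominant negative BMP receptor I (DNBR) at the 2-cell stage, and the control caps came from uninjected embryos. Each of the 4 spotted arrays, 2 per set, carried both RNAs, and the sets hold different clones. The control embryos received no mRNA, so any effect of injection itself cannot be told apart from that of the receptor. No strain, number of caps or number of embryo batches is given in the labels, so the spread between the arrays of a set may be technical. Every ratio below is on the log2 scale and sets DNBR caps over control caps, and this direction, which follows from the labels (DNBR RNA in Cy5, control RNA in Cy3), is likely but is not written in the deposited tables. Lowered and raised carry that assumption throughout: with the ratio turned, the 200 clones would be raised in DNBR caps and would outnumber the lowered ones.

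BMPs are secreted ligands that bring together type I and type II receptor kinases at the cell surface. The type I receptor then phosphorylates Smad1, Smad5 and Smad8, which enter the nucleus with Smad4 and switch on target genes. In Xenopus ectoderm this signal maintains epidermal fate, with vent, msx, id and gata genes and epidermal keratins among its well-known targets and markers, and a receptor that cannot signal lets the cells turn to neural fate. No source used here ties a clone ID to a gene, so no clone below is named by gene. Lists of epidermal, neural or BMP target genes could therefore not be read. None (0) of the 200 clone IDs matched the RefSeq gene table for X. laevis v10.1. That table holds gene names and accessions, so the lack of matches says nothing about which genes the clones represent. The clones are given by ID, in which the final letter and number are the well and the part before them is the plate. Since gene identity is not known, several clones may represent 1 gene. Less RNA of a transcript per cell and fewer cells holding it cannot be told apart in these explants.

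The strongest decreases were in set 2. XL097k08 had log2 ratios of -4.04 on array 1 and -4.07 on array 2, a mean of -4.06 ± 0.021 (SD, n = 2) and a level 16.7-fold lower in DNBR caps. XL110l06 stood at -3.92 and -3.68, with a mean of -3.80 ± 0.17 (SD, n = 2), or 13.9-fold lower. XL091i03 had -3.97 and -3.57, which is 13.7-fold lower on average. XL106o14 had -3.51 and -3.56, or 11.6-fold lower, and its arrays differed by far less than those of XL091i03. The next 3 clones were close to one another, each between 9.27-fold and 9.41-fold lower. XL073c14 read -3.18 and -3.29, XL063l23 read -3.36 and -3.06, and XL057d17 read -2.93 and -3.50. The order of these 3 is not resolved, because their means of -3.23, -3.21 and -3.21 lie within the SD of each clone, which was 0.081, 0.21 and 0.40. XL095l19 (-2.94 and -2.92), XL110f15 (-2.79 and -3.03) and XL094h01 (-2.64 and -2.72) completed the 10 lowest clones of the set. The lowest clones were spread over 9 plates, and only plate XL110 held 2 of them.

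In set 1 the lowest clones were less extreme, and the arrays agreed less. XL022i15 had -2.10 on array 1 and -3.05 on array 2, a mean of -2.58 ± 0.67 (SD, n = 2), or 5.96-fold lower. XL005k21 reached nearly the same mean, -2.57 ± 0.042 (SD, n = 2), from -2.60 and -2.54. The 2 clones are thus alike in size, 5.96-fold and 5.95-fold lower, but differ widely in how well the arrays repeat. XL005j17 read -2.14 and -2.54, and XL001p21 read -2.06 and -2.41. These 4 were the only clones of set 1 at least 4-fold lower on both arrays. XL030m11 (-1.93 and -2.19), XL002d14 (-1.96 and -2.14) and XL010d13 (-1.75 and -2.31) were between 4.08-fold and 4.17-fold lower on average. XL002g09 (-1.65 and -2.27), XL010g22 (-2.11 and -1.81) and XL028e07 (-1.76 and -2.12) were between 3.85-fold and 3.90-fold lower. Of these 10 clones, 8 were lower on array 2 than on array 1, whereas over all 40 members of set 1 this held for 20. From XL005j17 down, neighbours in rank among these clones differed by less than the SD of either between the arrays.

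**Figure D1:**
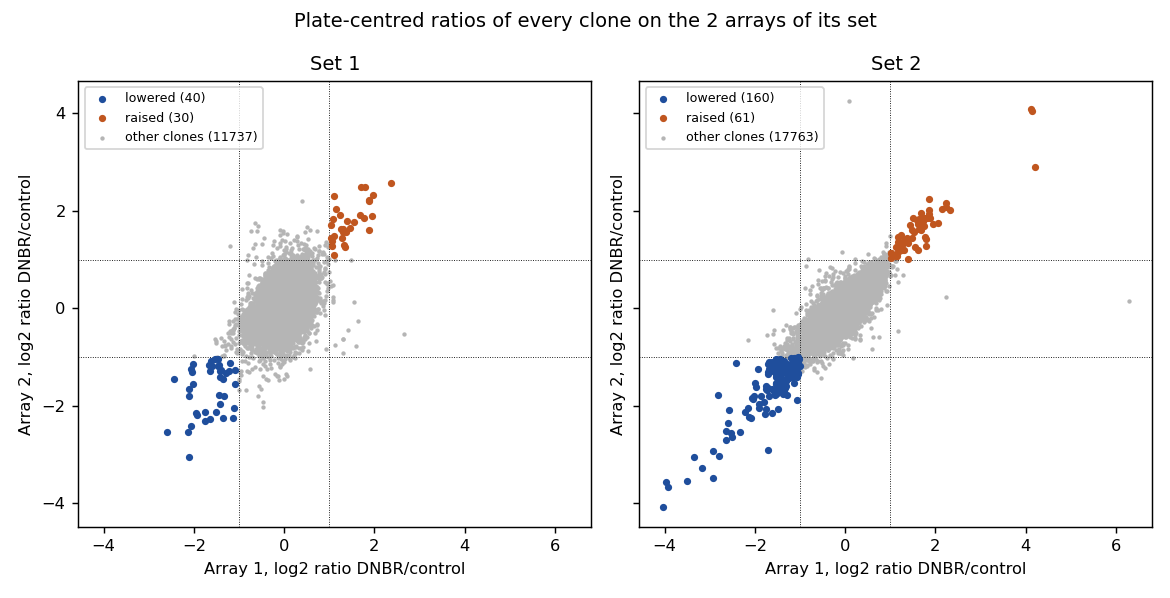
Plate-centred log2 ratio of DNBR over control of every clone on array 1 (horizontal) and array 2 (vertical) of its set, with the 2-fold limits dotted, lowered clones in blue, raised clones in orange and other clones in grey. In set 2 the lowered clones form a narrow band that reaches -4.04 on array 1 and -4.07 on array 2. In set 1 they form a wider cloud that reaches -2.60 on array 1 and -3.05 on array 2.

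Most members were much less extreme than these. In set 1 the mean of the 2 arrays had a median of -1.60 over the 40 clones, with quartiles of -1.94 and -1.35 and a highest value of -1.17. In set 2 the median over the 160 clones was -1.42, the quartiles were -1.67 and -1.24 and the highest value was -1.03. The middle of the list was thus lower in set 1, while the lowest members were in set 2. The rule bears on the difference in medians. Both arrays had to pass -1, so a clone whose arrays differed widely could enter only with a lower mean. The arrays of set 1 differed more than those of set 2, so nothing is read from that difference. By mean fold, 110 of the 160 clones of set 2 (68.75%) were between 2-fold and 3-fold lower, 28 between 3-fold and 4-fold, 15 between 4-fold and 8-fold, and 7 beyond 8-fold. In set 1, 18 of 40 (45.0%) were between 2-fold and 3-fold lower, 15 between 3-fold and 4-fold, 7 between 4-fold and 8-fold, and none (0) beyond 8-fold. The median over all clones was 0.0062 in set 1 and -0.0023 in set 2, near 0 by construction because plate medians had been subtracted.

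**Figure D2:**
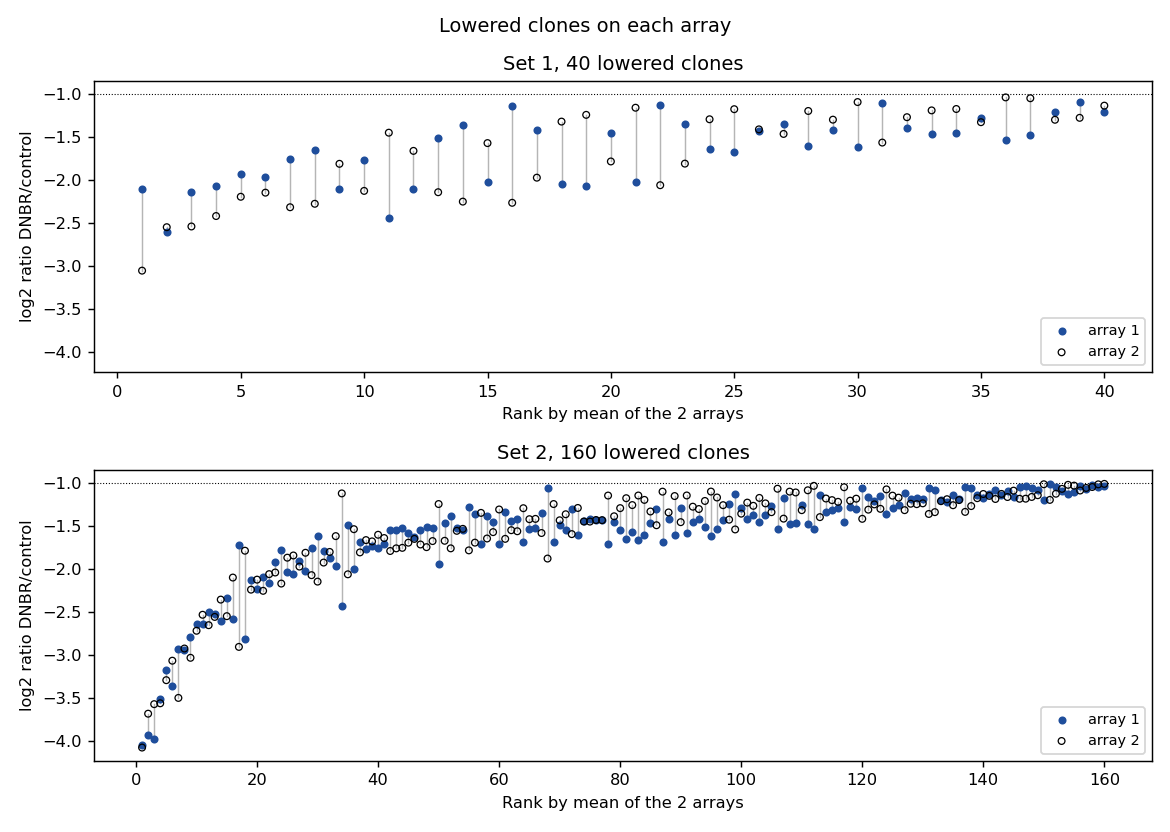
Log2 ratio of DNBR over control of each lowered clone on array 1 (filled) and array 2 (open), joined by a line, ranked by the mean of the arrays, with the limit of -1 dotted. The gap between the arrays is at most 0.5 for 27 of 40 clones in set 1 and for 148 of 160 in set 2. Over all clones of the sets this holds for 9443 of 11807 and for 17497 of 17984.

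The arrays of set 2 repeated the size of the decrease for most members, those of set 1 less so. The pooled SD between arrays was 0.21 for the 160 lowered clones of set 2, against 0.15 for all clones of that set. For the 40 lowered clones of set 1 it was 0.37, against 0.29 for all clones. The arrays were within 0.5 of each other for 148 of 160 clones in set 2 and for 27 of 40 in set 1. Over all clones this held for 17497 of 17984 and for 9443 of 11807, larger shares than among the members. More than 1 log2 unit lay between the arrays for 3 members of set 2 and 1 of set 1, against 35 and 209 of all clones. These members are named here after their values were seen. XL063e15 read -2.43 and -1.12, XL063e24 read -2.82 and -1.79, XL075o01 read -1.72 and -2.90, and in set 1 XL004e22 read -1.13 and -2.26. For these clones the 2-fold limit was passed on both arrays, but the size is known only within a wide range. Across the members, the ratios of the 2 arrays correlated with Pearson r = 0.87 and Spearman rho = 0.63 in set 2 (160 clones) and with r = 0.33 and rho = 0.28 in set 1 (40 clones). These are correlations across clones that share a hybridisation and were cut at the same limit, which narrows their range, and they are a description only.

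The other array gives a view of how often a low value on 1 array came back. In set 1, 92 clones were at or below -1 on array 1, and their median on array 2 was -0.91, with 40 of them (43.5%) at or below -1 there. Of the 99 clones at or below -1 on array 2, whose median on array 1 was -0.82, the same 40 (40.4%) passed on array 1. In set 2, 275 clones passed on array 1, and 160 of these (58.2%) passed on array 2, where the median was -1.13. Of the 209 that passed on array 2, 160 (76.6%) passed on array 1, where the median was -1.31. A low value on 1 array of set 2 was nearly always below 0 on the other, for 275 of 275 and 208 of 209 clones. In set 1 this held for 90 of 92 and 91 of 99. When each array was ranked by itself, 110 of the 160 lowest clones were shared between the arrays of set 2 and 19 of the 40 lowest were shared in set 1. Among the 10 lowest of each array, 9 were shared in set 2 and 4 in set 1. The identity of the most strongly lowered clones was thus more repeatable in set 2 than in set 1 on these arrays, with no test of that difference. The lowest 160 and 40 are unlike cuts, 0.89% and 0.339% of their sets. The difference was not particular to lowered clones. Of clones at or above 1 on array 1, 81.3% passed on array 2 in set 2 and 62.5% in set 1. From array 2 to array 1 it was 69.3% and 18.9%. Over all clones the arrays correlated with Pearson r = 0.83 in set 2 and 0.46 in set 1.

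**Figure D3:**
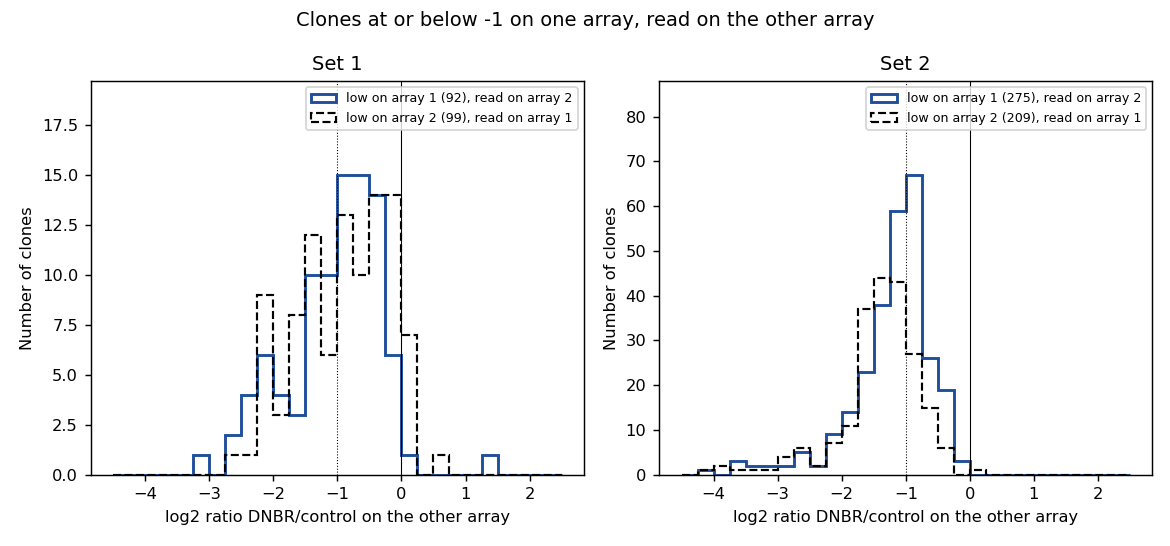
Number of clones (vertical) by their log2 ratio of DNBR over control on the array that was not used to pick them (horizontal), for clones at or below -1 on array 1 (solid) and on array 2 (dashed). In set 1 the medians, -0.91 and -0.82, lie above the limit of -1, and in set 2, at -1.13 and -1.31, below it.

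The limit of -1 lies in the tail of each set, and clones continue across it without a gap. Just inside it in set 2 stood XL094g01 (-1.01 and -1.20), XL064e12 (-1.04 and -1.01) and XL107p04 (-1.19 and -1.02). Just outside were XL062g24 (-1.46 and -0.9985), XL087l21 (-1.03 and -0.997) and XL059n18 (-1.29 and -0.996). In set 1 the last clones inside were XL002f16 (-1.53 and -1.04), XL052d20 (-1.48 and -1.05) and XL018a14 (-1.61 and -1.09). The first outside were XL036l04 (-0.999 and -1.50), XL050c12 (-0.9987 and -1.68) and XL046e07 (-1.49 and -0.995). XL050c12, outside the list, thus has a lower mean than XL002f16, inside it. Within 0.1 log2 units of the limit, by the higher of the 2 arrays, 29 members and 54 other clones lay in set 2, and 5 members and 16 other clones in set 1.

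Fewer clones were raised than lowered 2-fold on both arrays. At or above 1 on both arrays were 30 clones of set 1 (0.254%) and 61 of set 2 (0.339%), against the 40 and 160 lowered ones. At 3-fold on both arrays 39 clones were lower and 29 higher in set 2, and 11 lower and 10 higher in set 1. At 4-fold 20 were lower and 7 higher in set 2, and 4 lower and 1 higher in set 1. At 8-fold 6 were lower and 2 higher in set 2, but at 16-fold only XL097k08 was lower, against 2 higher clones. The excess of lowered clones in set 2 thus lay mostly between 2-fold and 3-fold. The balance was not the same by other measures. On array 2 of set 1 alone, 99 clones were at or below -1 and 159 at or above 1. These counts leave out plate XL0c2, and the equal point from which both directions are measured is the median of each plate.

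A limma fit over all clones of a set, on the plate-centred values, called 282 clones of set 1 lower (2.39%) and 3201 of set 2 (17.8%) at a Benjamini-Hochberg adjusted p under 0.05, and 275 and 3020 clones higher. All 40 and all 160 members were among these calls. Their selection on the same arrays makes that nearly certain, and nothing is read from it. The smallest decrease called was 1.52-fold in set 1 and 1.18-fold in set 2. The fit takes its error only from the spread between the 2 arrays of a set. A dye bias that repeats on both arrays, whose dyes were not swapped, would be called as well. The members were 14.2% of the lower calls of set 1 and 4.998% of those of set 2.

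The lowered clones of set 2 were unevenly spread over plates, even after each plate had been centred. Plates 56 to 65, a group known from earlier results on these data, held 63 of the 160 members (39.4%) on 3039 clones, a share of 2.07% of their clones. The other 45 plates held 97 on 14945 clones, a share of 0.649%. Raised clones were also more frequent on plates 56 to 65, at 22 (0.724%), against 39 (0.261%) on the other plates. Before centring, the medians of plates 56 to 65 ran from -0.66 (XL059) to -0.18 (XL061) on array 1. Those of the other plates of set 2 ran from -0.24 (XL074) to 0.084 (XL091). On array 2 the ranges were -0.58 to -0.16 and -0.24 to 0.070. The 10 plates also had a wider spread of ratios. The median absolute deviation within a plate, here the typical distance of a clone from its plate's median, had a median over plates of 0.27 on array 1 and 0.30 on array 2. On the other 45 plates it was 0.18 on both arrays. Both tails were wider. Over the clones within a plate, each taken as its mean of the arrays, the 5th percentile was -0.82 and the 95th 0.62 (medians over plates). On the other plates these were -0.49 and 0.46.

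Plate XL059 held the most members. It had 15 members among 270 clones (5.56%), none (0) raised, and a spread of 0.395 on array 1, the widest of the set, and of 0.355 on array 2, where plate XL058 was slightly wider. Its members had means between -1.83 and -1.19, and none was among the 10 lowest clones of the set. When every plate was brought to the same spread, an alternative added after the values were seen, plate XL059 held 0 members and plates 56 to 65 together held 14. That scaling shrinks the ratios of plates with a wide spread, so by construction their counts at a fixed limit could not rise. The list of set 2 then had 117 clones, of which 108 were among the 160. Whether these plates hold other kinds of transcripts or differ technically was not tested. Of the 20 clones at least 4-fold lower on both arrays, 5 were on plates 56 to 65 (0.165% of their clones) and 15 on the others (0.1004%). The median of the members' means was -1.40 on plates 56 to 65 and -1.43 on the other plates. Their pooled SD between arrays was larger, 0.28 against 0.16.

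The remaining plates, when pooled, held members at lower shares, 0.649% in set 2 and 0.339% over set 1. Single plates overlapped, however. Within plates 56 to 65 the share ran from 0.331% (XL060) to 5.56% (XL059). On the other plates of set 2 it ran from 0% to 1.62% (XL097). In set 2, 40 of the 45 plates outside 56 to 65 held at least 1 member, and the most on a plate was 5. In set 1, 25 of 55 plates held a member, 15 of them exactly 1, and no plate held more than 3. The lowest clones XL005k21 and XL005j17 shared plate XL005, and XL002d14 and XL002g09 shared plate XL002, as did XL010d13 and XL010g22 on plate XL010.

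**Figure D4:**
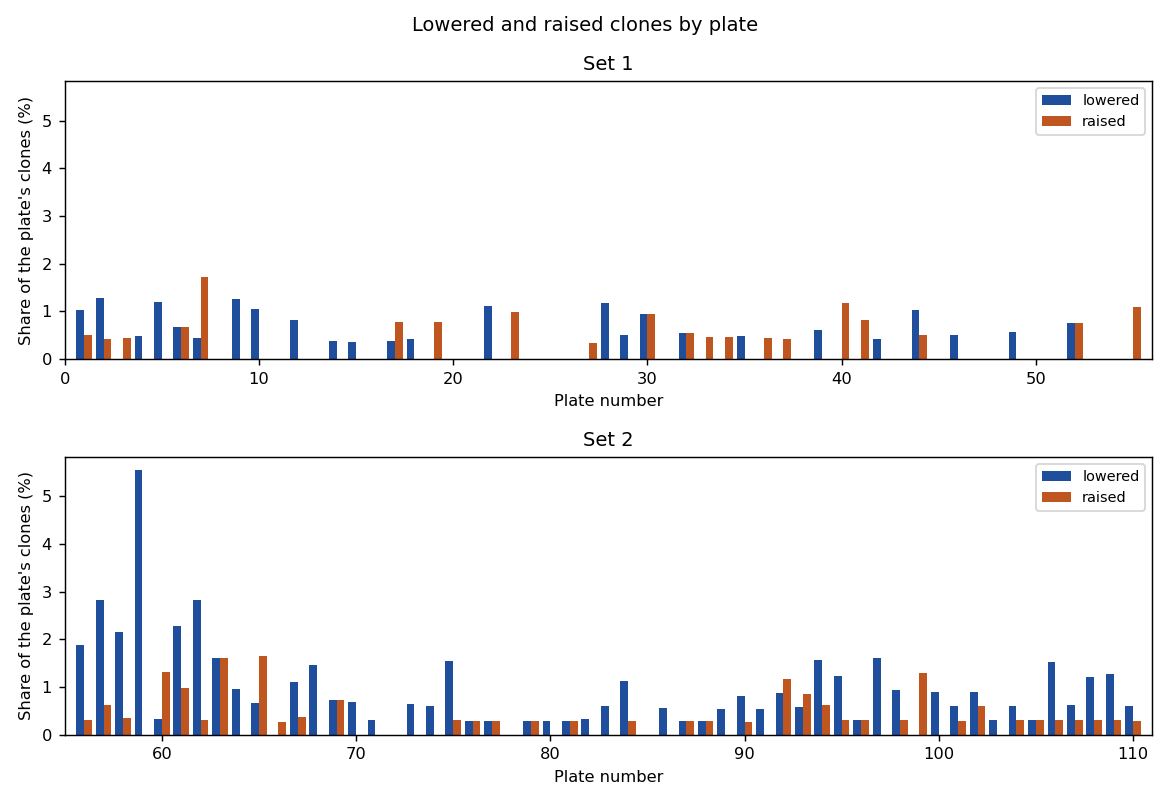
Share of each plate's clones (vertical, percent) that were lowered (blue) or raised (orange) 2-fold on both arrays, by plate number (horizontal). Plate 59 stands at 5.56% lowered, while the highest lowered share of a plate in set 1 is 1.28% (XL002).

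Position on the plate was also uneven, in different ways for each set. In set 1, 20 of 40 members (50.0%) lay in well columns 1, 5, 9 and every 4th column after them, where 24.9% of the clones of the set lay. Each of these 6 columns held at least 2 members. The median of this column class was the highest of the 4 classes on array 1, at 0.070, and the lowest on array 2, at -0.076. This class held 20 members as well when well positions were centred before plates, of 45 in all. The part of position in this excess was not tested. In set 2 the same columns held 33 of 160 members (20.6%) and 24.8% of the clones, so the excess was not seen there. The column class richest in members in set 2 was 3, 7, 11 and every 4th column after them. It held 52 members (32.5%) on 26.2% of the clones. Rows g and o of set 1 held 9 members (22.5%) on 10.1% of the clones.

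In set 2 members were rarest in rows a and i, with 7 of 160 (4.38%) on 12.05% of the clones, and most frequent in rows f and n, with 28 (17.5%) on 12.8%. The row medians were 0.12 and 0.21 on arrays 1 and 2 in rows a and i, and -0.063 and -0.11 in rows f and n. From rows a and i to rows f and n, the share of members rose pair by pair, from 0.323% to 1.21%. The medians fell at each of these steps on both arrays. The last row pairs broke that order. Rows g and o (-0.066 and -0.12) and rows h and p (-0.077 and -0.11) had medians about as low as rows f and n, but 0.883% and 0.929% of their clones were members, against 1.21% in rows f and n. In set 1, rows h and p had the lowest medians, at -0.22 and -0.20, and held 1 member on 682 clones (0.147%). Rows g and o of set 1 had the next lowest medians, at -0.20 and -0.19, and the highest share of members, 0.751%. With positions centred first, rows a and i held 10 members and rows f and n held 25, of 148 in all, 141 of which were among the 160. That setting centres row and column classes together, so the change cannot be put down to rows, and the part of position in membership was not tested.

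**Figure D5:**
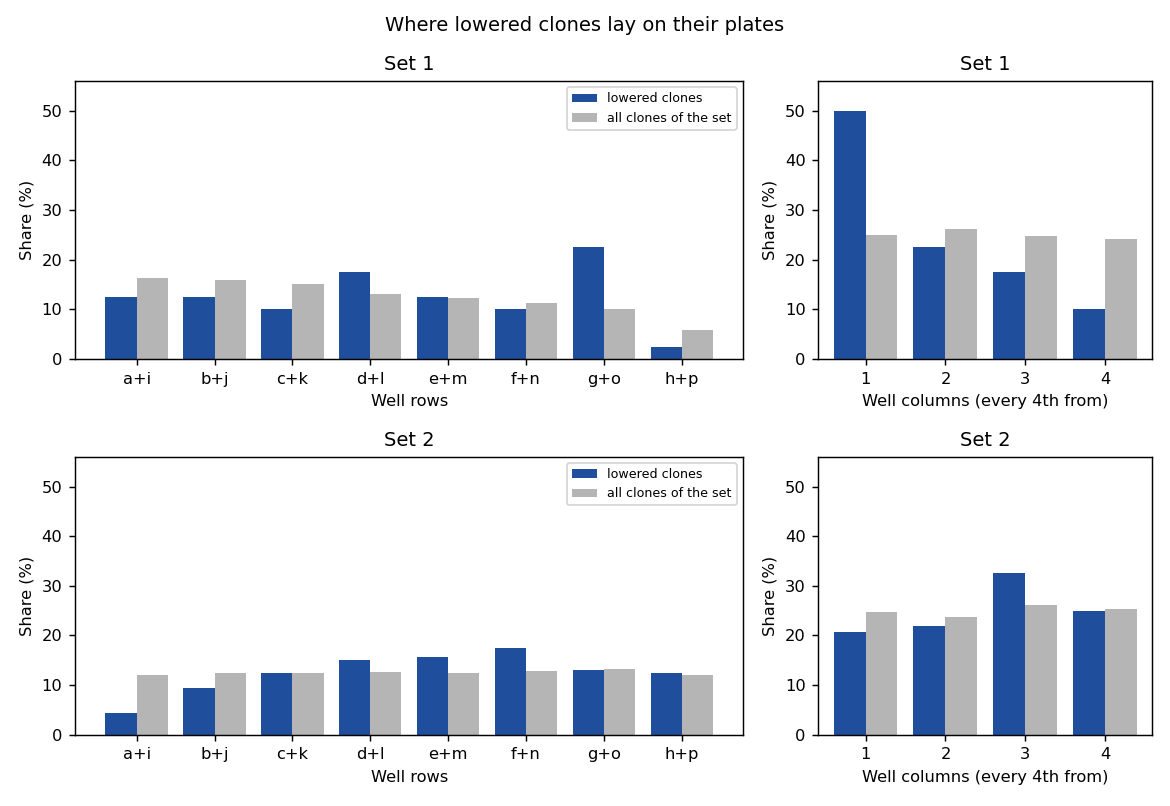
Share of the lowered clones (blue) and of all clones (grey) of each set, in percent, in each pair of well rows (left) and in each class of every 4th well column (right). In set 1, 50.0% of the lowered clones lie in the first column class, and in set 2 the first row pair holds 4.38% of them.

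Some members lay beside other members. Of the 160 lowered clones of set 2, 20 (12.5%) had another member in a well that shares a side with theirs, against 2.66% of the clones outside the list that had any neighbour. In set 1 it was 2 of 37 members with a neighbour (5.41%), against 0.696%. The pair of set 1, XL012a13 and XL012a14, had nearly the same values, at -1.67 and -1.17 for the first and -1.60 and -1.19 for the other (named after their values were seen). Of the 20 clones of set 2, 16 were among the 63 members on plates 56 to 65 and 4 among the 97 on the other plates. Members were also denser on plates 56 to 65, at 2.07% of the clones against 0.649%. The 2.66% is taken over the whole set and not by plate group, so it does not separate density from adjacency. The other wells around members had medians of -0.029 on array 1 and -0.067 on array 2 in set 2 (486 wells). In set 1 they were -0.042 and -0.048 (78 wells). Around clones outside the list the medians were 0 and 0 in set 2, and 0.019 and 0.023 in set 1. All these medians leave out wells that hold members. Wells around members were thus slightly lower on both arrays of both sets, and the cause was not tested. Of the 10 lowest clones of set 2, 1 lay beside another member: XL094h01, next to XL094g01, which was at -1.10 on average. Of the 9 among the 10 lowest of set 1 that had a neighbour, none (0) did.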

How the data were processed

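Two-colour spotted arrays were read with a GenePix scanner, and GenePix Pro, Cyber-T and GeneData Expressionist were used, per the labels. The treatment of bad spots, background and normalisation was not given in the sources used here. Each deposited value is a natural log ratio for a clone, without channel intensity, flag or error, and was converted to log2. The values themselves gave the base: taken as natural logs, all non-negative values (100%) turned into ratios of whole hundredths, to within 0.0002, against at most 5.14% taken as base 2 or base 10. No value was missing, and 0 columns belonged to other samples. The checks of the base and of missing values did not cover plate XL0c2.

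The 111 control-named probes of set 1 and the 132 clones of plate XL0c2 were left out. Plate medians were subtracted on each array. The whole-set test was limma 3.58.1 in R 4.3.3 (lmFit, eBayes, mean of 2 arrays against 0, two-sided, Benjamini-Hochberg within the set). Its code was tried on simulated data with equal, independent noise for every clone and no dye, plate or position effect. That trial does not bear on such effects here. Arrays were too few, at 2 per set, to measure precision well, the dyes were not swapped, and dim spots could not be filtered.

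The named clones are the 10 lowest members of each set by mean and the 3 clones on each side of the limit. Clones named for another reason are marked as such. The members and the lists were chosen with earlier results of these data known. Other centrings, scalings, limits and single arrays were tried as alternatives.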

Additional observations from a re-analysis of the deposited data

How the results depend on the processing

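No paired analysis was possible because the sets share no clone, so a replicate number cannot pair arrays across sets. DNBR and control RNA are already paired within each array, and every ratio rests on that. The counts of lowered clones moved with the limit in both sets and with the mean of the arrays in set 1. They also moved on either single array of set 1, on array 1 alone of set 2, and with centring in set 2. In set 2 the 160 became 334 as deposited, 271 with arrays centred as a whole, 97 without plates 56 to 65, 571 at 1.5-fold and 39 at 3-fold. Plates 56 to 65 held 220 of the 334 and 177 of the 271, against 63 of the 160. In set 1 the 40 became 150 at 1.5-fold, 11 at 3-fold and 68 by the mean of the arrays. On 1 array alone there were 92 to 99 in set 1 and 209 to 275 in set 2. The raised clones became 104 at 1.5-fold and 10 at 3-fold in set 1, from 30, and 48 to 159 on 1 array. In set 2 they became 401 at 1.5-fold, 29 at 3-fold and 39 without plates 56 to 65, from 61. The limma lower calls became 139 and 1445 at an adjusted p of 0.01, from 282 and 3201. The other alternatives kept these counts within 1.5 times. Of the members, 39 of 40 and 151 of 160 remained with arrays centred as a whole, and 36 and 141 with positions centred first. Other centrings moved the 20 lowest clones by at most 0.45 log2 units, and 43 of 60 values by less than 1 SD. Leaving out plates and scaling plates to 1 spread were added after the data had been seen. A limit or a left-out plate changes a count by construction, and so does scaling plates to 1 spread on the plates with a wide spread. Otherwise the cause was not tested.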

Other observations

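Plate XL0c2, which the choice of members leaves out, held 3 clones at or below -1 on both arrays among its 132 (2.27%) after centring on its own median. XL0c2b08 read -2.38 and -1.94, XL0c2e10 read -1.43 and -1.17, and XL0c2g22 read -1.09 and -1.12. Raised clones were more frequent there, at 18 (13.6%). None (0) of the 111 control-named probes of set 1 was at or below -1 on both arrays after centring on their own median.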
